A study of Homo sapiens with 6 samples.

Results

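The MYC, MAX, MXD and MLX network is a family of transcription factors of the basic helix-loop-helix leucine zipper type that bind DNA in pairs. Its 9 genes examined here were MYC, MAX, MLX, MXD1, MXI1, MXD3, MXD4, MNT and MGA. They were chosen by name, with earlier results of these data known. Every row of the expression table whose RefSeq protein accession belongs to one of these genes was taken, which gave 40 of 109018 rows, and the reads of the rows were summed to 9 of the 19049 genes that could be given a symbol.

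MYC pairs with MAX and activates genes of growth, ribosome production and metabolism. The MXD proteins, MXI1, MNT and MGA compete with MYC for MAX and recruit repressor complexes to the same DNA element, the E-box. MLX is a MAX-like protein that pairs with some of these repressors and with the glucose-sensing factors MondoA (gene MLXIP) and ChREBP (gene MLXIPL). In leukemic cells driven by Bcr-Abl, MYC is known as one of the factors on which growth depends.

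The cells were K562, an established human erythroleukemia line that carries Bcr-Abl. Knockdown cells stably expressed an shRNA against a long non-coding RNA, which the sample labels call lncRNA-IIRX and the study calls lncRNA-IUR-5, and control cells expressed an shRNA against luciferase. There were 3 libraries of each, named sh-IUR-5 and sh-luc here, all made from lines carrying the same pSIH vector, so the comparison asked which genes differ when the lncRNA is knocked down. In the column labels library 1 of each group carries the number 1, and libraries 2 and 3 share a leading 2. Reading these numbers as series 1 and series 2 is an inference, since no label names a series or a batch. The stable lines of a group are one hairpin in one cell line. The study describes 3 independent groups of cells, but whether libraries 2 and 3 of a group came from separate cultures could not be settled from the labels, so the SDs and p-values measure the spread between these libraries.

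The libraries held between 21023739 and 31481109 reads, and sh-IUR-5 library 1 was the deepest. The knocked-down lncRNA has no protein accession, so its level was not analysed here. All 11 erythroid markers examined had a mean of at least 1 RPKM (reads divided by row length and library total). Their summed RPKM ran from 16320 to 17010 in sh-IUR-5 and from 20450 to 22870 in sh-luc libraries. The near-identical fetal globin genes HBG1 and HBG2 dominated this sum, and the other 9 markers summed to 1204 to 1491 in sh-IUR-5 and 1501 to 1822 in sh-luc. Of 13 markers of other cell types 2 reached 1 RPKM, LYZ and EPCAM, and MS4A1, MPO and CDH1 were listed at 0 in all 6 libraries, with a summed RPKM of 181.8 to 205.6 in sh-IUR-5 and 165.2 to 191.6 in sh-luc. The part of the lower erythroid marker sum in the results below was not tested, and in bulk RNA fewer cells of a type cannot be told apart from less RNA per cell. Over all 11554 genes tested with edgeR's quasi-likelihood test, 43.7% passed a Benjamini-Hochberg adjusted p of 0.05. Of all tested genes 23.2% were higher and 20.5% lower in sh-IUR-5. When libraries were scaled by total reads alone instead of TMM (a scaling that centres most genes), the median log2 fold change moved from 0.02 to 0.22 and the calls from 2682 higher and 2364 lower to 4560 higher and 1114 lower.

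Among the 9 members, MXI1, MXD1 and MGA rose in sh-IUR-5 cells and MXD3 fell. MYC, MAX, MLX, MXD4 and MNT did not pass the test. The 4 members called were 44.4% of the 9, close to the 43.7% of all genes. In 5 members the libraries of the 2 groups did not overlap, beside 53.7% of all genes tested. The median log2 fold change of the members was 0.24 and that of all genes was 0.02. With total reads as the only scaling 6 members were higher and none was lower (66.7% beside 49.1% of all genes called), and the call of MXD3 was lost. Series 1 holds 1 library of each group, so no test could be run within it, and with the label series as a term 5 members were called, MYC in addition to the 4, which was 55.6% beside 55.9% of all genes in the same fit.

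**Figure D1:**
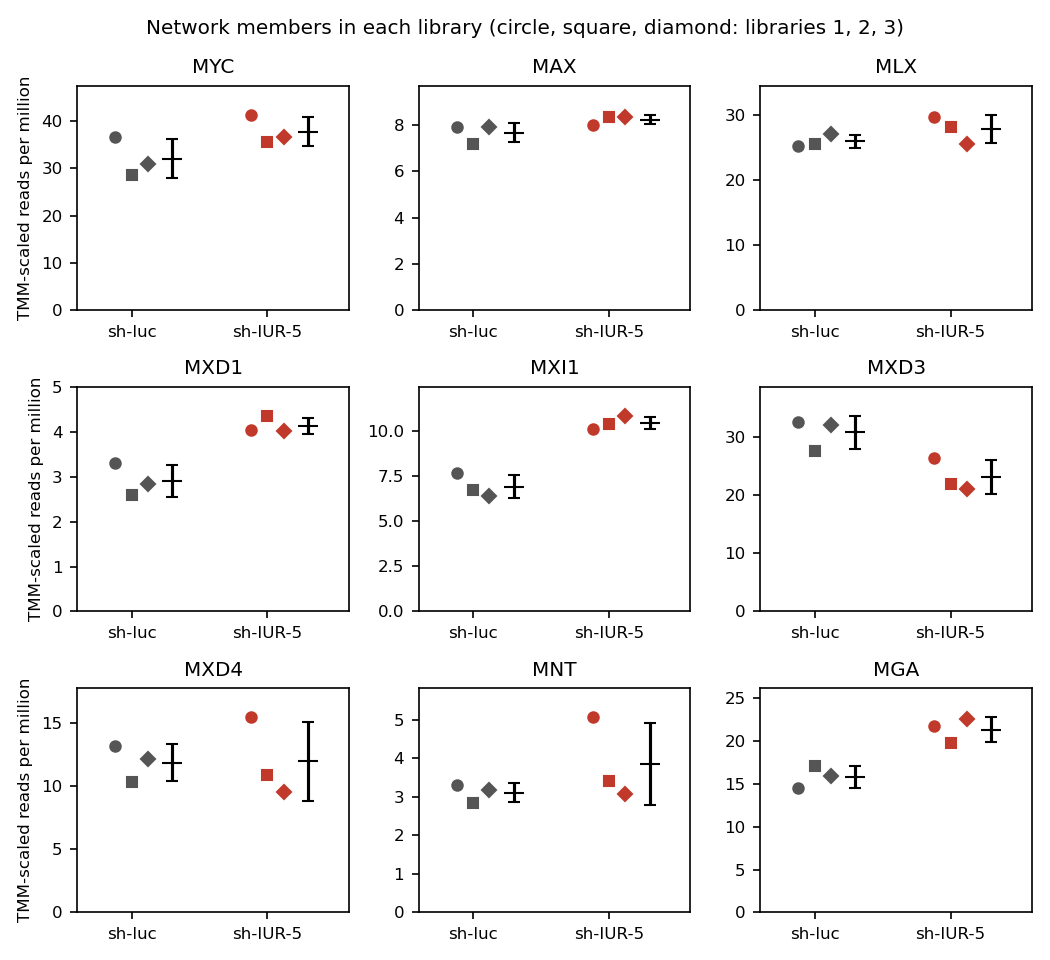
TMM-scaled CPM (reads brought to a common library size, y axis from 0) of the 9 members in the 3 sh-luc (grey) and 3 sh-IUR-5 (red) libraries, with the mean and SD of each group beside the points. The sh-IUR-5 points of MXI1, MXD1 and MGA lie above all sh-luc points and those of MXD3 below, while those of MYC, MLX, MXD4 and MNT overlap.

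The levels of the members spread over a wide range when read as RPKM summed over the rows of a gene, a level per length that is scaled to total reads. In sh-luc cells the order was MXD3, MLX, MYC, MAX, MXD4, MXI1, MXD1, MNT and MGA. MXD3, a repressor of the MXD group, was highest at 47.24 ± 4.66 RPKM (mean ± SD, n = 3), and MLX followed at 32.29 ± 1.33. MYC stood at 21.92 ± 2.92 and its obligate partner MAX at 18.68 ± 1.53. The ranges of MYC and MAX over the 3 libraries overlapped, as did those of MAX and MXD4. Within each sh-luc library MYC stood above MAX, at 25.1 and 18.77, 19.37 and 17.11, and 21.29 and 20.17 RPKM. MAX stood above MXD4 in libraries 2 and 3 (17.11 and 15.03, 20.17 and 18.04) but not in library 1 (18.77 and 19.53). MXD4 had 17.54 ± 2.29, MXI1 9.04 ± 0.825 and MXD1 4.15 ± 0.538 RPKM, each apart from the next. MNT at 2.03 ± 0.221 and MGA at 1.81 ± 0.127 were lowest and overlapped.

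In sh-IUR-5 cells the order of the 9 was the same, with other neighbours overlapping. MXD3 at 40.94 ± 6.46 RPKM and MLX at 39.7 ± 4.20 now overlapped, and so did MAX with MXD4, MXD4 with MXI1, and MNT with MGA. MYC at 29.76 ± 3.47 and MAX at 22.51 ± 0.131 did not overlap in range. The ratio of MAX to MYC within libraries, given below, overlapped between the groups. MXI1 was at 15.52 ± 0.528 RPKM, against 20.46 ± 6.05 for MXD4.

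MYC, the activator of the network, was covered by 799, 564 and 611 reads in control cells and by 1449, 906 and 955 reads in knockdown cells. Scaled by TMM to CPM, these were 36.61, 28.7 and 30.95 in sh-luc and 41.25, 35.5 and 36.6 in sh-IUR-5. Library 1 was the highest of each group, and sh-luc library 1 lay inside the range of sh-IUR-5, so the groups overlapped. The mean was 32.08 ± 4.08 in control and 37.78 ± 3.05 in knockdown cells, a log2 fold change of 0.24 with a 95% interval of 0.02 to 0.46 and an adjusted p of 0.0774 in edgeR's test. The call of MYC depended on the processing. MYC passed in 6 of 17 alternatives, with log2 fold changes from 0.16 to 0.44 over all 17, higher in each. Without sh-luc library 1 the adjusted p was 0.0145, and with the label series as a term it was 0.0035. MYC coding exons overlap exons of CASC11 on the other strand, and strand-specific counting is not stated, so reads of the pair cannot be told apart.

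The genes whose pattern over the 6 libraries was most like that of MYC were MLLT1, WBP2 and NFKB1, with Pearson correlations of 0.994, 0.994 and 0.992 among 8893 genes with a mean of at least 100 reads. This is a description over 6 libraries that share their groups and their depth.

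MAX, the shared partner of MYC and of the repressors, had 7.93, 7.17 and 7.9 TMM-scaled CPM in sh-luc and 8.0, 8.35 and 8.32 in sh-IUR-5. The 3 knockdown libraries lay just above the control libraries, without overlap. The log2 fold change was 0.10 with an interval of -0.14 to 0.34, and it did not pass (adjusted p = 0.493). With total reads only it was 0.30 and passed at an adjusted p of 0.0441.

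MAX is known for a pair of long isoforms that differ by a short insert next to the basic region. Of the 9 MAX rows, the row of 483 bases (NP_002373.3) and the row of 456 bases (NP_660087.1) held the most reads, and their lengths match the coding lengths of GENCODE 44 transcripts ENST00000358664.9 and ENST00000358402.8. The longer one has 27 further coding bases at chr14:65101546-65101572 on the minus strand of hg38, inside the MAX gene (chr14:65006174-65102695). They are shown in capitals with the flanking coding bases, since they are the stretch by which these rows differ.

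MAX insert: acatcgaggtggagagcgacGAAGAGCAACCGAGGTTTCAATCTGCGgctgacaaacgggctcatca

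The row with the insert held 53, 34 and 41 reads in sh-luc and 90, 58 and 61 in sh-IUR-5. The row without it held 55, 38 and 36 in sh-luc and 76, 70 and 73 in sh-IUR-5. Both rows were higher in count in every knockdown library, which were also deeper. On the TMM scale their log2 fold changes were 0.21 and 0.28, and neither passed the test over rows (adjusted p = 0.376 and 0.244). MAX coding exons also overlap an exon of an unnamed gene, ENSG00000259118, on the other strand.

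MLX, the MAX-like partner of the glucose-sensing factors, had 25.2, 25.49 and 27.05 TMM-scaled CPM in sh-luc and 29.66, 28.17 and 25.44 in sh-IUR-5. Knockdown library 3 fell within the control range. The log2 fold change was 0.10 with an interval of -0.09 to 0.29 (adjusted p = 0.372). With total reads only MLX reached 0.31 and passed at an adjusted p of 0.0198.

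MLXIP, which codes for the MLX partner MondoA, had 32.21, 25.18 and 29.33 TMM-scaled CPM in sh-luc and 46.23, 32.87 and 32.3 in sh-IUR-5. The groups did not overlap, but knockdown library 1 stood well above the other two. MLXIP rose by 0.36 on the log2 scale (SE 0.14, adjusted p = 0.0484), and without sh-IUR-5 library 1 the value was 0.17 with an adjusted p of 0.207. It passed in 10 of 17 alternatives. MLXIPL, which codes for ChREBP, had 27.17, 15.82 and 17.27 in sh-luc and 24.11, 13.44 and 11.69 in sh-IUR-5, overlapping groups with a log2 fold change of -0.28 (SE 0.25, adjusted p = 0.39). MLXIPL passed as lower in 4 of 17 alternatives, with the label series as a term (-0.31, adjusted p = 0.00338), with the replicate block (-0.31, adjusted p = 0.00635), with the block and the trends on GC content and length removed (-0.29, adjusted p = 0.00364) and without sh-IUR-5 library 1 (-0.69, adjusted p = 0.00803). Library 1 was the highest of each group for both genes. Of the other MYC family genes, MYCN was listed at 0 reads in all 6 libraries, where 3 reads would be 0.0953 to 0.143 CPM. MYCL had between 21 and 28 reads in sh-luc and 27 to 68 in sh-IUR-5, a log2 fold change of 0.35 (SE 0.28) that did not pass (adjusted p = 0.328).

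MXI1, a repressor that competes with MYC for MAX, had the largest log2 fold change of the members in TMM-scaled gene sums. With the row of most reads taken per gene MXD1 was larger, at 0.78 against 0.64. MXI1 had 7.65, 6.72 and 6.38 TMM-scaled CPM in sh-luc and 10.13, 10.38 and 10.81 in sh-IUR-5. All 3 knockdown libraries lay above all 3 controls. The mean went from 6.92 ± 0.658 to 10.44 ± 0.34, a 1.51-fold rise with a log2 fold change of 0.59, an interval of 0.35 to 0.84 and an adjusted p of 0.00125. MXI1 passed in all 17 alternatives tried, with log2 fold changes from 0.54 to 0.79 and adjusted p from 4.74e-05 to 0.00867 over the edgeR and DESeq2 fits. MXI1 coding exons overlap an exon of an unnamed gene, ENSG00000228417, on the other strand.

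MXD1, a repressor known to be induced when myeloid cells differentiate, was low, with 72, 51 and 56 reads in sh-luc and 142, 111 and 105 in sh-IUR-5. On the TMM scale these were 3.3, 2.6 and 2.84 CPM in sh-luc and 4.04, 4.35 and 4.02 in sh-IUR-5. The groups did not overlap, and their means were 2.91 ± 0.358 and 4.14 ± 0.183. MXD1 rose 1.42-fold, a log2 fold change of 0.50 with an interval of 0.16 to 0.84 and an adjusted p of 0.0206. The call was lost in 5 of 17 alternatives, namely in DESeq2 (adjusted p = 0.0612) and without sh-luc library 2 (0.0789), sh-luc library 3 (0.0606), sh-IUR-5 library 2 (0.0751) or sh-IUR-5 library 3 (0.0513).

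MXD3, a repressor of the same group known from proliferating cells, was the member that fell. It had 32.62, 27.58 and 32.12 TMM-scaled CPM in sh-luc and 26.36, 21.9 and 21.08 in sh-IUR-5. Every knockdown library lay below every control library. The mean was 30.77 ± 2.78 in sh-luc and 23.11 ± 2.84 in sh-IUR-5, or 0.753-fold, a log2 fold change of -0.41 with an interval of -0.64 to -0.18 and an adjusted p of 0.00774. With total reads only it was -0.20 (adjusted p = 0.183), and with trends on GC content and coding length removed it was -0.12 (adjusted p = 0.23), so the call did not hold under these scalings. The direction was lower in all 17 alternatives.

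MXD4, the last of the MXD group, had 13.15, 10.28 and 12.11 TMM-scaled CPM in sh-luc and 15.43, 10.89 and 9.5 in sh-IUR-5. Knockdown library 1 was the highest of the 6 libraries and knockdown library 3 the lowest. The log2 fold change was 0.02 with an interval of -0.34 to 0.38 (adjusted p = 0.931), and without sh-IUR-5 library 1 it was -0.22.

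MNT, a broadly expressed repressor that pairs with MAX or MLX, had 3.3, 2.85 and 3.19 TMM-scaled CPM in sh-luc and 5.07, 3.41 and 3.07 in sh-IUR-5. One knockdown library, number 1, set the higher mean. The log2 fold change was 0.32 with an interval of -0.12 to 0.76 (adjusted p = 0.222), and it was 0.05 without that library.

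MGA, the largest protein of the network and a scaffold of a Polycomb complex called PRC1.6, had 14.52, 17.09 and 15.91 TMM-scaled CPM in sh-luc and 21.75, 19.75 and 22.53 in sh-IUR-5. The groups did not overlap. MGA rose 1.35-fold, from 15.84 ± 1.29 to 21.34 ± 1.44, a log2 fold change of 0.43 with an interval of 0.22 to 0.64 and an adjusted p of 0.00335. With trends on GC content and coding length removed the log2 fold change was 0.10 (adjusted p = 0.369). With the row of most reads taken in place of the sum it was 0.62 with an adjusted p of 0.0559.

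**Figure D2:**
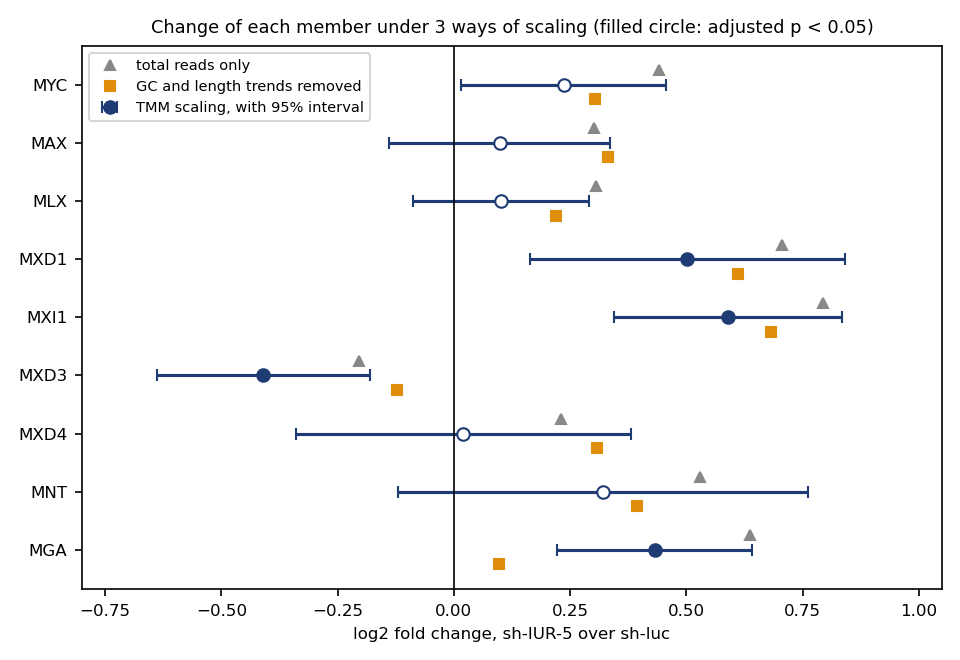
Log2 fold change of each member, sh-IUR-5 over sh-luc (x axis), with TMM scaling and its 95% interval (circles, filled where the adjusted p is under 0.05), with total reads only (triangles) and with GC and length trends removed (squares). MXI1 lies between 0.59 and 0.79 in all 3, MXD3 moves from -0.41 to -0.12, and MGA moves from 0.43 to 0.10 once the trends are removed.

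Changes over all genes followed the base composition and length of the coding sequence, which bears on MXD3 and MGA. Genes were ranked and cut into 5 groups of near equal size. From the group with the lowest coding GC content, with a median of 41%, to that with the highest, with a median of 64.2%, the median log2 fold change went from 0.16 to -0.12. From the group of the shortest coding sequences, with a median of 522 bases, to the longest, with 3414 bases, it went from -0.22 to 0.21. MXD3 is short and GC-rich, with 621 coding bases at 68.1% GC, and MGA is long and GC-poor, with 8571 bases at 44.2% GC. After the trends were removed MXI1 was at 0.68 (adjusted p = 0.000444) and MXD1 at 0.61 (adjusted p = 0.00674). MYC was then at 0.30 (adjusted p = 0.0148) and MAX at 0.33 (adjusted p = 0.02), so both passed. With the trends removed 4 members (MXI1, MXD1, MYC and MAX) were higher and no member was called lower, 44.4% beside 41.6% of all genes called. Whether these trends are technical was not tested.

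**Figure D3:**
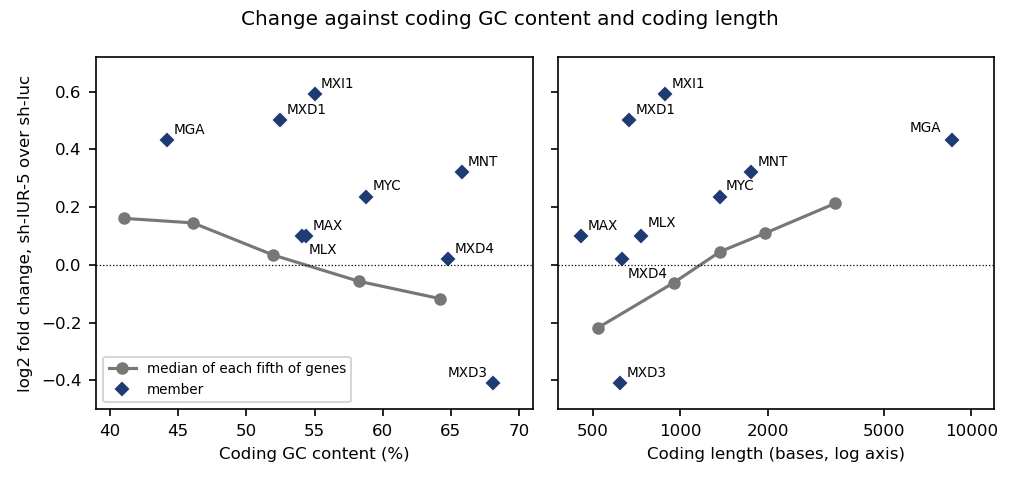
Log2 fold change, sh-IUR-5 over sh-luc (y axis), against coding GC content in percent (left) and coding length in bases on a log axis (right), with the medians of 5 groups of genes as a grey line and the members as diamonds. The median goes from 0.16 to -0.12 with rising GC and from -0.22 to 0.21 with rising length. MXI1 and MXD1 lie above both lines, as do other members such as MYC and MLX, while MXD3 lies below the length line.

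The balance between members was also read within each library, where the scaling between libraries drops out. MXD3 per MYC, as a ratio of RPKM, was 2.0, 2.16 and 2.33 in sh-luc and 1.43, 1.39 and 1.29 in sh-IUR-5. The groups did not overlap, and the exact two-sided permutation test gave p = 0.1, the smallest that 3 libraries against 3 can give (0.15 after adjustment over 9 ratios). MXD3 made up 59.46%, 60.36% and 61.98% of the summed RPKM of the 4 genes MXD1, MXI1, MXD3 and MXD4 in sh-luc and 49.2%, 48.63% and 48.86% in sh-IUR-5.

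MXD3 per MXI1 went from 5.25 ± 0.621 in control to 2.64 ± 0.397 in knockdown cells, and MXD1 per MXD3 from 0.0877 ± 0.00617 to 0.168 ± 0.0222. Per MYC, MXI1 went from 0.414 ± 0.0347 to 0.525 ± 0.0515, and the sum of MXD1, MXD3, MXD4, MXI1, MNT and MGA from 3.75 ± 0.22 to 3.0 ± 0.149. Each of these 4 ratios was without overlap and also at the smallest exact p of 0.1. MXD3 was the largest term of the sum per MYC, and MXD3 per MYC alone went from 2.16 ± 0.167 to 1.37 ± 0.0716. The lower sum therefore does not show that the other partners fell per MYC, and MXI1 per MYC was higher. MAX per MYC was 0.859 ± 0.102 in sh-luc and 0.763 ± 0.0869 in sh-IUR-5 and overlapped (exact p = 0.3). MXD4 per MXI1, at 1.94 ± 0.227 and 1.32 ± 0.379, and MLXIP per MLX, at 0.309 ± 0.0404 and 0.371 ± 0.056, overlapped as well (exact p = 0.2 each). The ratios still carry the trends on GC content and length, to which MXD3 is exposed.

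Single rows of a gene are RefSeq protein isoforms, and 20 of the 40 member rows reached a mean of 1 RPKM. None of the 14 MGA and 4 MNT rows did. Of the 20, 3 rose and 2 fell, beside 37.3% of all 38204 rows called. The rows that rose were MXD1 NP_002348.1 (log2 fold change 0.79, adjusted p = 0.0174) and MXI1 NP_005953.4 (0.66, adjusted p = 0.00528) and NP_569157.2 (0.65, adjusted p = 0.00162). The third MXI1 row, NP_001008541.1, was at 0.41 (adjusted p = 0.0854). Both MXD3 rows fell, NP_112590.1 by 0.40 and NP_001136407.1 by 0.39 on the log2 scale (adjusted p = 0.0106 and 0.00987).

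Rows were then set against their own gene. Against the other rows of the gene, 0 of 18 member rows passed in edgeR's diffSpliceDGE, 0 had an unadjusted p under 0.05 and the smallest was 0.103, for the MAX row XP_011535075.1, while 12% of all 35067 rows in that test passed. Rows of equal length within MGA, such as XP_005254300.1 with 23, 24 and 16 reads in sh-luc and XP_005254303.1 with 21, 26 and 26, held different counts. How reads shared by rows were divided is not given in the sources used here, and calls on rows rest on it.

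The E-box that MYC, MAX and MLX pairs bind was searched for as the letters CACGTG, which read the same on both strands, in RefSeq promoters of GRCh38.p14 that run from 250 bases before to 50 after the start site. It was present in 7.26% of 35116 promoters and for 13.1% of the 9544 tested genes with a promoter. Among the members 8 had a promoter in the table, all but MYC, and 3 of them held the letters, MLX, MNT and MXD4. The 3 stretches are shown with the E-box in capitals because they are the places where the network's own element stands before its own genes. The MLX stretch is chr17:42567023-42567082 on the plus strand, 50 bases before the start site, the MNT stretch chr17:2401221-2401280 on the minus strand, 193 bases before it, and the MXD4 stretch chr4:2262315-2262359 on the minus strand, 238 bases before it.

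MLX: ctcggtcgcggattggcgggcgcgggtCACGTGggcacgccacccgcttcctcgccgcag
MNT: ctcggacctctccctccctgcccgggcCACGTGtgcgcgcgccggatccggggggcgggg
MXD4: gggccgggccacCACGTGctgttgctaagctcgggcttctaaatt

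None of MLX, MNT and MXD4 passed the test, and the 4 members that did, MXI1, MXD1, MGA and MXD3, did not hold these letters in this window. A match is a description of the letters and not of binding.

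Partners and cofactors of the network were read as a list of 26 genes, of which 25 were tested. In sh-IUR-5, 7 rose, 4 fell and 14 did not pass, so 44% were called beside 43.7% of all genes, and the median log2 fold change was 0.03 beside 0.02. USP28, a deubiquitinase that stabilises MYC, had 1.37, 1.68 and 1.82 TMM-scaled CPM in sh-luc and 3.22, 2.82 and 3.6 in sh-IUR-5. USP28 rose by 0.99 on the log2 scale (SE 0.19, adjusted p = 0.00147). TRRAP, the large scaffold that brings histone acetyltransferases to MYC, had 77.42, 71.69 and 77.4 in sh-luc and 141.4, 126.7 and 128.8 in sh-IUR-5. TRRAP rose by 0.81 (SE 0.07, adjusted p = 1.56e-05). USP28 and TRRAP rose in all 17 alternatives.

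RUVBL2, an ATPase of the TRRAP complexes, fell by 0.44 on the log2 scale (SE 0.09, adjusted p = 0.00161) and passed in all 17 alternatives. The corepressor genes that MXD proteins recruit went both ways. SIN3A rose by 0.47 (SE 0.09, adjusted p = 0.00101) and SIN3B by 0.37 (SE 0.10, adjusted p = 0.011), SAP30 fell by 0.34 (SE 0.09, adjusted p = 0.00928), and HDAC1 and HDAC2 were at 0.03 and -0.08 and did not pass. With total reads only SAP30 was at -0.14 (adjusted p = 0.212) and HDAC2 changed sign. With GC and length trends removed SIN3A was at 0.23 (adjusted p = 0.0411), SAP30 at -0.19 (adjusted p = 0.0775) and HDAC2 at -0.22 (adjusted p = 0.00988), and HDAC1 changed sign. These corepressor genes were named after their values were seen.

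Of 10 genes of the MGA complex PRC1.6, 4 rose, 2 fell and 4 did not pass, 60% beside 43.7% of all genes, with a median log2 fold change of 0.22. The share depended on the processing. With the row of most reads 2 rose and 2 fell, 40% beside 39.8% of all genes. With the replicate block 5 rose and 3 fell, 80% beside 53% of all genes. RYBP, a subunit that stimulates the ubiquitin ligase, had 2.38, 2.65 and 2.74 TMM-scaled CPM in sh-luc and 4.24, 4.43 and 4.33 in sh-IUR-5. RYBP rose by 0.74 (SE 0.15, adjusted p = 0.0018). TFDP1, the partner of E2F6 in DNA binding, rose by 0.54 (SE 0.08, adjusted p = 0.000287). TFDP1 was at 0.36 with the row of most reads (adjusted p = 0.0521) and at 0.34 with curated RefSeq rows only (adjusted p = 0.0674), where the call was lost. YAF2, a close relative of RYBP in the same place of the complex, had 22.86, 20.55 and 20.62 in sh-luc and 15.66, 15.67 and 15.6 in sh-IUR-5. YAF2 fell by 0.45 (SE 0.09, adjusted p = 0.00137), and RING1, a ubiquitin ligase subunit, fell by 0.29 (SE 0.07, adjusted p = 0.0052). With total reads only RING1 was at -0.08 (adjusted p = 0.371).

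Genes known to be activated by MYC made up a list of 43, many of them for nucleolar and ribosome production proteins. In sh-IUR-5, 14 fell, 6 rose and 23 did not pass, so 46.5% were called beside 43.7% of all genes, with a median log2 fold change of -0.20. NOP2, a nucleolar RNA methyltransferase, had 121.1, 121.6 and 128.4 TMM-scaled CPM in sh-luc and 69.91, 83.18 and 84.11 in sh-IUR-5. NOP2 fell by 0.65 (SE 0.08, adjusted p = 9.53e-05). FBL, the methyltransferase fibrillarin, had 888.3, 934.1 and 960 in sh-luc and 580.8, 689.2 and 668.9 in sh-IUR-5. FBL fell by 0.52 (SE 0.08, adjusted p = 0.000249). NOP2 and FBL were lower and passed in all 17 alternatives.

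HK2, a hexokinase of glycolysis, rose by 0.82 (SE 0.21, adjusted p = 0.00787), at 1.37 to 1.63 CPM in sh-luc and 2.22 to 3.18 in sh-IUR-5. The call of HK2 was lost in 2 of 17 alternatives, with the row of most reads (adjusted p = 0.0673) and with curated RefSeq rows only (adjusted p = 0.118). CDC25A, a phosphatase that drives the cell cycle, rose by 0.51 (SE 0.18, adjusted p = 0.0348), although its sh-luc library 3 at 7.95 lay above sh-IUR-5 library 1 at 7.4. CDC25A passed in 12 of 17 alternatives. The call was lost without sh-luc library 1 (0.34, adjusted p = 0.129), sh-luc library 2 (adjusted p = 0.0975), sh-IUR-5 library 2 (0.111) or sh-IUR-5 library 3 (0.0939), and with GC and length trends removed (0.0898). The split of the MYC-activated genes depended on the scaling. With total reads only 11 were higher and 4 lower, 34.9% called beside 49.1% of all genes (4560 higher and 1114 lower). With GC and length trends removed 1 was higher and 16 lower, 39.5% beside 41.6% of all genes (2428 higher and 2322 lower). Without sh-luc library 3, 11 were called, 5 higher and 6 lower, or 25.6% beside 35.2% of all genes. Of 35 of these genes with a promoter, 22 held the E-box (62.9%). Among the 22, 3 rose and 7 fell with a median of -0.13, and among the 13 without it 3 rose and 4 fell with a median of -0.22. Over all tested genes with a promoter, 293 rose and 254 fell of 1246 with the E-box. Of the 8298 without it 1970 rose and 1699 fell.

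Genes known to be repressed by MYC or driven by MondoA and MLX were 7, of which CDKN1A and CDKN2B had too few reads to test. Of the 5 tested, 3 rose and none fell, so 60% were called beside 43.7% of all genes (23.2% called higher). The median log2 fold change was 0.53. ARRDC4, an arrestin-like gene driven by MondoA and MLX, had 2.8, 3.66 and 2.63 TMM-scaled CPM in sh-luc and 6.12, 4.66 and 5.06 in sh-IUR-5. ARRDC4 rose by 0.81 (SE 0.17, adjusted p = 0.00258). TXNIP, an inhibitor of glucose uptake and the best-known MondoA target, had 45.91, 36.53 and 37.64 in sh-luc and 66.98, 52.07 and 54.45 in sh-IUR-5. TXNIP rose by 0.53 (SE 0.11, adjusted p = 0.00238).

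CDKN1B, the cell cycle inhibitor p27 and the third of the list that rose, went up by 0.44 (SE 0.10, adjusted p = 0.004). ARRDC4, TXNIP and CDKN1B passed in all 17 alternatives. NDRG1 was at 0.60 (adjusted p = 0.102) and GADD45A at 0.08 (adjusted p = 0.462), and with total reads only both passed as higher (adjusted p = 0.0384 and 0.0212). GADD45A was also higher with GC and length trends removed, at 0.37 (adjusted p = 0.00184).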

How the data were processed

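Per the submitters' processing notes, the authors used CASAVA 1.8, Trimmomatic 0.32, Bowtie2 2.1.0 and SAMtools 0.1.19 with hg38. The authors deposited read counts and RPKM for 109018 RefSeq protein accessions in 6 libraries. RPKM equalled reads divided by row length and library total in every row (relative tolerance 1e-06). The RefSeq release, the strand setting and the rule for reads shared by rows are not given in the sources used here. A further deposited table holds the authors' own comparison (pooled reads and RPKM, fold changes, p-values and q-values) and was not used.

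Accessions were matched to symbols for 64.7% of rows, which held 83.9% to 84.8% of the reads of a library, and counts were summed per gene. Genes with a mean of at least 10 reads were tested with edgeR 4.0.16 in R 4.3.3 (TMM scaling, quasi-likelihood test, two-sided, Benjamini-Hochberg adjustment over all genes, threshold 0.05), and rows with a mean of at least 1 RPKM likewise. Intervals are 95% intervals from the quasi-likelihood standard error. Ratios of RPKM were added after the data had been seen and were compared by exact permutation. Floors of 3 reads cover counting error only. Coding GC content came from GENCODE 44 and covered 98.6% of genes. Coding length was the deposited length of the row with the most reads of each gene. Promoters and their start sites came from RefSeq. The scripts were tested on simulated data.

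Members and lists were chosen with earlier results of these data known. Named were all members, the network genes MYCN, MYCL, MLXIP and MLXIPL, the 2 genes of each list that rose most and the 2 that fell most among those called, and the 3 genes most like MYC. One gene that this rule names is not reported here. CDKN1B, NDRG1, GADD45A and the corepressor genes were named outside this rule after their values were seen. Alternatives were DESeq2 1.42.0 and its size factors, total reads only, other filters, other sums of rows, removal of GC and length trends with mgcv 1.9.3, a replicate block, the label series and each library left out.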

Additional observations from a re-analysis of the deposited data

How the results depend on the processing

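Over 9 members and 17 alternatives, 126 of the values kept their direction and their side of the threshold, 12 gained a call, 11 lost one and 4 changed sign. All 4 sign changes were of MXD4, with log2 fold changes of -0.00521 with DESeq2's size factors and -0.00943 in DESeq2, and a range of -0.223 to 0.144 with libraries left out (-0.0771 without sh-luc library 2 and -0.223 without sh-IUR-5 library 1). MLXIPL was at 0.00342 without sh-luc library 1 and ran from -0.688 to that value. HDAC2 was at 0.117 with total reads only, and HDAC1 at -0.062 with the trends removed and -0.0624 with the block as well. Called MYC-repressed and MondoA-MLX targets were all 5 tested with total reads only, beside 49.1% of all genes. They were also 5 with the trends removed under the block, beside 51.7% of all genes. Called MYC-activated targets were 33 with the label series as a term, 9 higher and 24 lower (76.7% beside 55.9% of all genes). With a library left out they were 11 to 22, where 35.2% to 43.7% of all genes were called (11 without sh-luc library 3). Called member rows were 9 with total reads only (45% beside 43.1% of all rows). With a library left out they were 3 to 5 (3 without sh-IUR-5 library 2), or 15% to 25% beside 29.3% to 35.6% of all rows. Deviations from the group mean correlated at 0.382, 0.134 and 0.0327 between same-numbered libraries. The replicate numbers did not pair libraries 2 and 3, since sh-luc libraries 2 and 3 correlated best with another number. Pairs within a label series were all positive (0.0327 to 0.382), and pairs across series were all negative (-0.283 to -0.134). Deviations from a group mean sum to 0 within the group, so these signs are tied to each other. A positive value for the libraries numbered 1 by itself pushes the other signs this way, so they do not count as separate observations. The main fit holds no term for the series. With the replicate block 6122 genes (53%) were called, among them all 5046, and MYC was at 0.238 (adjusted p = 0.00881). In that fit 31 MYC-activated targets or 72.1% were called, 9 higher and 22 lower. With the trends removed as well 32 of these targets were called, 6 higher and 26 lower, 74.4% beside 51.7% of all genes. Except where a value shows it, the cause of these changes was not tested. MXD1 and MNT, with 51 to 178 reads a library, had the widest intervals with MXD4, and the intervals of MAX, MLX, MXD4 and MNT included 0.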
